A study of Homo sapiens with 12 samples.

Results

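The comparison described here sets 1 H3K27me3 ChIP-seq library of T24 cells that received 5 µM GSK-126 and 5 µM fenretinide together for 72 h against 1 library of T24 cells that received DMSO, the vehicle. T24 is an established human line from a bladder carcinoma, GSK-126 is a small-molecule inhibitor of the methyltransferase EZH2, and fenretinide is a synthetic retinoid. These 2 libraries were chosen by their labels from the 12 of the series, and the 2 libraries of the single compounds (5 µM for 72 h each) served only to ask which changes went past, or stayed short of, the sum of both compounds. The 4 RNA-seq and 4 input libraries were not analysed here, so nothing below is a measure of expression, and the identity of the cells was not checked on marker transcripts. With 1 library for each condition, none of the differences described has a replicate check.

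H3K27me3 is trimethylation of lysine 27 of histone H3. The Polycomb repressive complex 2 places it through its catalytic subunit EZH2 (or EZH1) with the help of EED and SUZ12, and complexes that contain CBX proteins bind it and keep genes silent. In differentiated and cancer cells the mark typically covers promoters of developmental regulators such as HOX genes, and broad low domains between genes. Retinoids act through nuclear receptors (RARs and RXRs), and retinoic acid is known to displace Polycomb proteins from some developmental genes. Fenretinide is also known for effects that do not need these receptors, among them oxidative and endoplasmic reticulum stress.

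The authors counted fragments in 273664 consensus intervals that cover 1296 Mb. The vehicle library had 17133107 such fragments (13.2 per kb) and the combination library 15812933 (12.2 per kb). A ratio below is the share of the combination library's interval fragments divided by the share of the vehicle library's, and brackets hold its exact 95% Clopper-Pearson counting interval. "Higher" means a ratio of at least 2 and "lower" a ratio of at most 0.5, each with a counting interval that excludes 1. These intervals cover counting error only and compare 2 libraries, not the conditions. The labels name no spike-in, so all directions are in library share. Background scaling, which uses only the 25% of intervals of lowest fragment density, moved every log2 ratio of combination over vehicle by -0.81, DESeq2 size factors by -0.13 and TMM factors by -0.16. Its reference intervals come from called peaks, so they are not a background free of the mark. Over all fragments of the lowest density decile of tested intervals the ratio was 2.22, and over the next decile 1.61. A reference with a larger share in the combination library moves all ratios down. Whether these intervals are unchanged between the conditions was not tested.

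Near genes, lower values outnumbered higher ones in the combination library. All 9 measured HOX genes, 34 of 54 WNT, BMP, FGF and TGF-beta genes and 12 of 16 Polycomb genes were lower, against 32.9% of all genes. Such shares were not particular to these lists: 4 of 5 housekeeping, 8 of 12 cell cycle and 9 of 15 apoptosis genes were lower too. Retinoid (8 of 31, 25.8%) and basal and squamous genes (6 of 28, 21.4%) lay nearer to the share of all genes. Their median log2 ratios were -0.60 and -0.62, against -0.64 over all genes. Of 342 zinc-finger (ZNF) genes 232 were higher, against 9.86% of all genes. A gene's value summed the intervals under deposited peaks whose nearest transcription start site (TSS) was that gene's, within 10 kb of the peak centre. All TSS distances here run from peak centres. A gene without such a peak has no value, even where an interval covers its TSS. Of 14736 genes with at least 50 fragments in the pair of libraries, 1453 (9.86%) were higher and 4842 (32.9%) lower, and the median log2 ratio was -0.64. The level of the median gene went from 14.6 fragments per kb with vehicle to 9.13 with the combination. With background scaling, 756 genes were higher and 10196 lower.

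**Figure D1:**
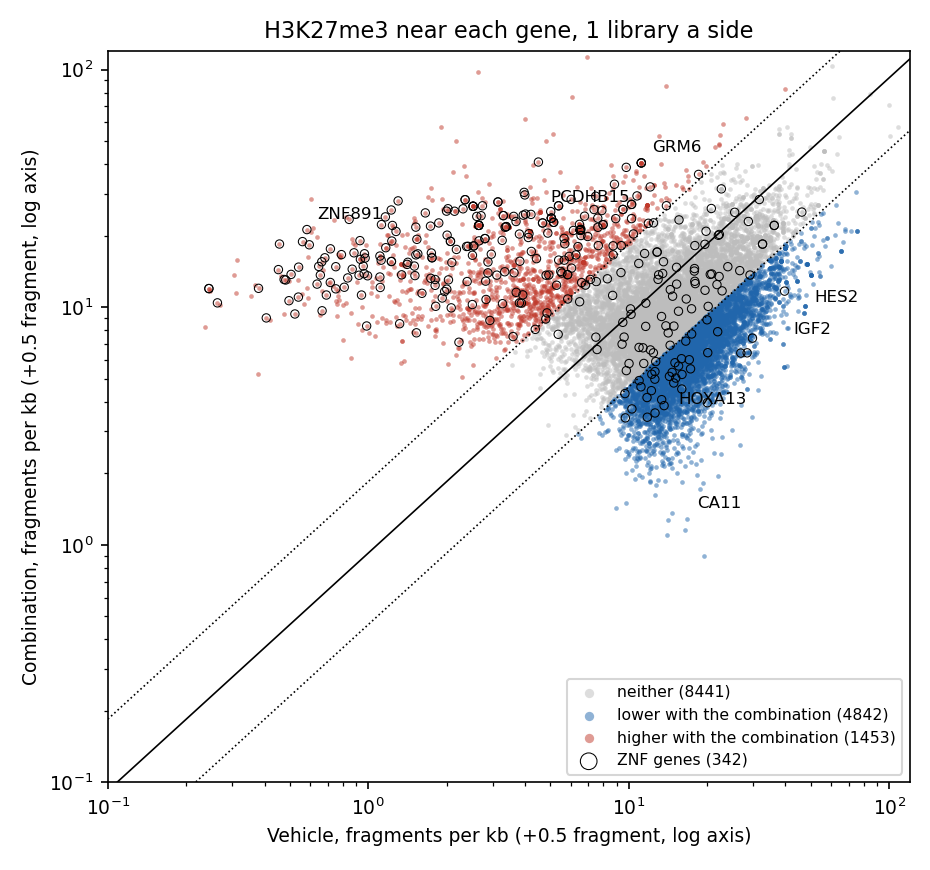
Each point is 1 of 14736 genes, with vehicle (x axis) and combination (y axis) fragments per kb on log axes; the solid line marks equal library share, dotted lines a ratio of 2 and of 0.5, and open circles the 342 ZNF genes. Most ZNF circles (232 of 342) lie above the upper dotted line, and ZNF891 lies at 0.571 fragments per kb with vehicle and 21.2 with the combination.

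The largest falls took IGF2, a fetal growth factor gene, from 39.3 to 6.97 fragments per kb (766 to 136 fragments, ratio 0.192, 0.159 to 0.231). The interval that HES2, a transcriptional repressor gene of the Hairy/Enhancer-of-split family, shares with ESPN and MIR4252 went from 1477 to 296 fragments (0.217, 0.191 to 0.246). TPSG1, a tryptase gene, went from 1824 to 364 fragments (0.216). Smaller intervals fell further in ratio. Near CA11, a member of the carbonic anhydrase family that lacks enzyme activity, 97 fragments became 7 (0.0782, 0.0306 to 0.167), a log2 ratio of -3.59, or -2.14 when only the peaks of these 2 libraries counted. BIK, a pro-apoptotic BH3-only gene, went from 144 to 16 fragments (0.12, 0.067 to 0.202), a log2 ratio of -3.02, or -1.24 with peaks limited to 2 kb of the TSS. The adenosine receptor gene ADORA2A had 95 vehicle and 11 combination fragments, and KREMEN2, whose product binds the WNT antagonist DKK1, had 246 and 39. C1QTNF8 went from 1016 to 191 fragments, a log2 ratio of -2.29. That log2 ratio was 0.21 with peaks limited to 2 kb of the TSS and -0.27 with the peaks of these 2 libraries only. Both settings left out the interval that covers its promoter, which went from 970 to 156 fragments (ratio 0.174). LINC00482, LSP1, GPR20, CCDC183, NXPH4, ASIC4 and SAMD11 (in an interval with LOC100130417 and LOC101928801) made up the rest of the 15 largest falls, with ratios from 0.129 (NXPH4) to 0.203 (ASIC4).

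Of the 15 largest rises, 11 were ZNF genes. ZNF891 went from 27 to 1003 fragments over 47.3 kb, which is 0.571 to 21.2 fragments per kb (ratio 40.2, 27.5 to 61.4). ZNF570 and ZNF527, neighbours on chromosome 19 whose intervals overlap, went from 123 to 2585 and from 127 to 2629 fragments. ZNF254, ZNF615 and ZNF701 had 17, 16 and 37 vehicle fragments and 539, 525 and 888 with the combination. The other 4 were LOC100289333 and LOC101928926 on chromosome 19, MIR4273 on chromosome 3 (73 to 1538 fragments) and TP53TG5 on chromosome 20 (2 to 117 fragments, ratio 63.4, 17.2 to 530). All 15 had at most 1.22 fragments per kb with vehicle and at least 11.9 with the combination.

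Across the genome, the share of higher intervals climbed with the distance to genes. Of 158263 intervals with at least 20 fragments in the pair, 38127 (24.1%) were higher and 24939 (15.8%) lower. The intervals come from peaks called on these same libraries, so part of both shares follows from that choice. Intervals with a peak in the combination list only held 25950 higher and 3 lower calls. Those with a peak in the vehicle list only held 5 and 12636. Where both lists had a peak, 12.6% were higher and 12.9% lower. This limit applies to all shares of intervals and windows below. Within 2 kb of a TSS 7.8% were higher and 32.6% lower (median log2 -0.66, n = 6856), and from 2 to 10 kb 11.4% and 34.6% (median -0.67). From 10 to 50 kb these shares were 15.9% and 22.9%, and from 50 to 200 kb 24.1% and 10.6%. From 200 kb to 1 Mb 43.9% were higher and 2.99% lower (median 0.89), and beyond 1 Mb 73.7% and 0.594% (median 1.67, n = 1178). In the vehicle library the level ran from 19.9 fragments per kb within 2 kb to 4.71 beyond 1 Mb, and in the combination library it stayed between 11.7 and 13.2 over all 6 distance classes. With background scaling, which shifts all medians alike, 68.5% were lower within 2 kb and 65.4% from 2 to 10 kb, so the order of these shares turned. The median from 50 to 200 kb turned from 0.16 to -0.66, that from 200 kb to 1 Mb was 0.07 and that beyond 1 Mb 0.86.

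**Figure D2:**
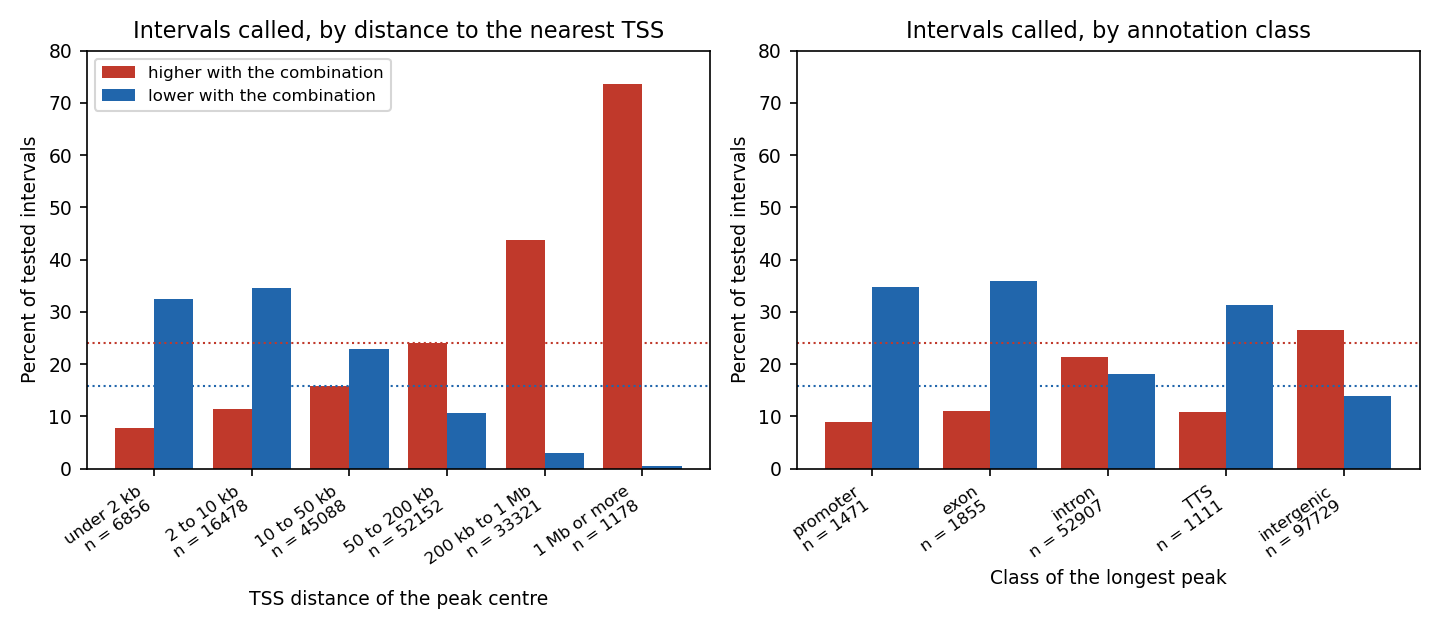
Bars give the percent of tested intervals that were higher (red) or lower (blue) with the combination, by TSS distance (left) and by annotation class (right), with n under each pair and dotted lines at the shares over all intervals. The lower share is 32.6% within 2 kb, 34.6% from 2 to 10 kb and 0.594% beyond 1 Mb, while the higher share climbs from 7.8% to 73.7%.

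By annotation class, 34.9% of 1471 promoter intervals and 36% of 1855 exon intervals were lower, against 18.2% of 52907 intron intervals and 14% of 97729 intergenic intervals. Of 225 intervals whose longest peak had no annotation 85.3% were higher and none was lower, and their level went from 6.58 to 57.4 fragments per kb. Higher calls were most frequent at low density: in the decile of intervals with the lowest mean fragment density 53.9% were higher and 7.15% lower, and in the densest decile 16.5% and 15.5%. Background scaling takes intervals of low density as its reference, so its larger numbers of lower calls follow in part from that choice. Intervals of 100 kb or more held 13.7% of the vehicle fragments and 11.2% of the combination fragments. Gene-rich chromosomes had the lowest medians (22 at -0.95, 17 and 19 at -0.73), and chromosomes 21 (0.94) and X (0.62) the highest. Unplaced contigs took 0.342% of the vehicle and 1.19% of the combination fragments, and scaling without them, to chromosomes 1 to 22 and X, gave 1465 higher and 4770 lower genes.

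In 1 Mb windows, formed after the data were seen, 472 of 2891 (16.3%) were higher and 140 (4.84%) lower. Of 26 windows with at least 5 measured ZNF genes 16 were higher and 1 lower (median log2 1.21). Of 189 windows with no measured gene 123 were higher and none lower (1.26), and of 97 windows with at least 20 measured genes and no ZNF gene none was higher and 33 were lower (-0.77). The largest rise of all, at 7000001 to 8000000 of chromosome 21, was in a window without a measured gene (182 to 4435 fragments, ratio 26.4). Other windows without a measured gene on chromosomes 21, 13, 18, 7 and 15 were also among the 20 largest rises. The 5 ZNF-rich windows of chromosome 19 among these 20 went from between 1459 and 3101 vehicle fragments to between 9798 and 23375. With background scaling 131 windows were higher and 1148 lower, and the windows without a measured gene had a median of 0.45.

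The peak lists differed too. The authors called 212277 peaks over 703 Mb with vehicle and 274393 over 829 Mb with the combination, and 433 Mb were common, which is 61.6% of the vehicle and 52.3% of the combination length. Of the vehicle peaks, 58464 (27.5%) overlapped no combination peak, and of the combination peaks 106683 (38.9%) overlapped no vehicle peak. Peaks found in 1 list were short, with medians of 806 bp (vehicle) and 1016 bp (combination). Intervals with a peak in the vehicle list only went from 13.4 to 4.69 fragments per kb, and those with a peak in the combination list only from 3.5 to 11.4. The peaks were called on these same libraries, so both directions follow from the grouping. Peaks over 20 kb numbered 4235 with vehicle and 2931 with the combination. A deposited score (the authors' own, of unstated scale) of at least 20 left 108015 vehicle and 70729 combination peaks. Of these, 54.2% of vehicle peaks and 31.1% of combination peaks lacked a partner, so the order turned. The vehicle list was then also the longer one.

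Promoter counts depended on how a promoter was defined. By the class deposited for each peak, promoter peaks numbered 2203 with vehicle and 2405 with the combination, and 588 genes had one in both lists, 1534 with vehicle only and 1746 with the combination only. RefSeq promoter windows (GRCh38.p14, 250 bases before to 50 after the TSS) numbered 34961, and by any overlap 7875 of them overlapped a vehicle peak and 6420 a combination peak, 4548 both. Of the 10177 windows inside a tested interval, 956 (9.39%) lay in a higher and 2933 (28.8%) in a lower interval, or 348 and 6843 with background scaling. Windows in lower intervals had a median of 10 CpG dinucleotides, those in higher intervals 5 and those in neither 5, against 14 over all windows and 19 over windows with no interval. The median was 18 over the 91 windows of higher ZNF genes and 4 over the remaining 865 higher windows. The lower share was 13.8% for windows with 0 to 2 CpG and 40.5% for those with 31 or more, with a median log2 ratio of -0.27 and -0.81. Between these ends it did not climb steadily: 25.3% at 3 to 5 CpG, 38.45% at 6 to 10, 39.6% at 11 to 15, 30.5% at 16 to 20 and 37% at 21 to 30.

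Of the 6 windows below, 3 lay in lower intervals, with 4 to 44 CpG, and 3 in higher intervals, with 6 to 20. They were chosen after their values were seen. Capitals mark CpG dinucleotides, both strands being alike for this motif, and each sequence runs 5′ to 3′ on the strand of the gene, from RefSeq on GRCh38.p14. HOXA13, a posterior homeobox gene, has 44 CpG at chr7:27200042-27200341 (minus strand), in an interval that went from 146 to 24 fragments. UPK1A, which encodes a uroplakin of the urothelial surface, has 4 at chr19:35666267-35666566 (plus strand), in an interval that went from 169 to 37. ZNF467, a zinc-finger gene that fell, has 33 at chr7:149773539-149773838 (minus strand), 1842 to 415. ZNF716 has 7 at chr7:57449927-57450226 (plus strand), 56 to 850. SOX3, an X-linked neural transcription factor gene, has 20 at chrX:140505020-140505319 (minus strand), 84 to 383. PCDHB15, a clustered protocadherin gene, has 6 at chr5:141245145-141245444 (plus strand), 441 to 2423.
HOXA13: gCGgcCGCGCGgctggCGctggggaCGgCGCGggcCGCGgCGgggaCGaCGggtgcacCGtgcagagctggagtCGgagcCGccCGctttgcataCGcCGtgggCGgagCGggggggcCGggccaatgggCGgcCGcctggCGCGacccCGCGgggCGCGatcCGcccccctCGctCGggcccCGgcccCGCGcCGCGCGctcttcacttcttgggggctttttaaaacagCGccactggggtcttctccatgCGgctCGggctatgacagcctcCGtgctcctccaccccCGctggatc
UPK1A: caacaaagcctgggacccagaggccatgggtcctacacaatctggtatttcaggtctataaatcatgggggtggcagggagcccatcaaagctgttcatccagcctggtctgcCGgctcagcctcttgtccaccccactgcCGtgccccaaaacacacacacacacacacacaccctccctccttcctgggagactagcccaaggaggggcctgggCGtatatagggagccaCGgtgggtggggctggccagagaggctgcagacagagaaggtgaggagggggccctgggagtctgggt
ZNF467: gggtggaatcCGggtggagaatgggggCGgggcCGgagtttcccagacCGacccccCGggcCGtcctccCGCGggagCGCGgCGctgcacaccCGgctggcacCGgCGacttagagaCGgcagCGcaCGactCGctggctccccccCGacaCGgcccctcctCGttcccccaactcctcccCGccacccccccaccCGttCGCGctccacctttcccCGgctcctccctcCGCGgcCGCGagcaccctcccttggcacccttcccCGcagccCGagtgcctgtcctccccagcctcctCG
ZNF716: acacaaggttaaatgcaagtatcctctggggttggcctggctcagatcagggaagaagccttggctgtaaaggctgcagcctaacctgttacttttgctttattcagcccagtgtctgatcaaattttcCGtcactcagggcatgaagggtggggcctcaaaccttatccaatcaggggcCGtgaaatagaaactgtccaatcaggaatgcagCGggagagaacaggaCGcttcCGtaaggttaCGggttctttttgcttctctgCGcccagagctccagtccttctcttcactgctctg
SOX3: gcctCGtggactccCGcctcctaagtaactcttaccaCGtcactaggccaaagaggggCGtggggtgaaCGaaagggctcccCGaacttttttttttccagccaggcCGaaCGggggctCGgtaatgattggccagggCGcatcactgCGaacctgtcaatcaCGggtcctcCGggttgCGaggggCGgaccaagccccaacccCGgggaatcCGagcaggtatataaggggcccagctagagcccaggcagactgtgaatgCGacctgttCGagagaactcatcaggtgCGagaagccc
PCDHB15: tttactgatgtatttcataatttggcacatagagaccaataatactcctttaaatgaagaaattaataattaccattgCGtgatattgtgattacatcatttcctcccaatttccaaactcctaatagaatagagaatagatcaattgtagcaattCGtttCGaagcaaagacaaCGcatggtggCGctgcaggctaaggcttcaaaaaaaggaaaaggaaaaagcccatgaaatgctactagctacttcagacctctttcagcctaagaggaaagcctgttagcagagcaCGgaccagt

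The gene lists follow by role, each read against the 9.86% higher, 32.9% lower and median of -0.64 over all genes. Members of a list can share an interval and are then not independent. The TSS distance allowed for a peak moved some named genes by over 1.5 times without turning their direction. With peaks at any distance the log2 ratio of ZNF845 was 1.80 (5.19 within 10 kb), that of ZNF716 3.29 (4.03), IFI44 1.10 (1.87), ADORA2A -1.09 (-2.94), SMAD7 -1.71 (-2.69), SRXN1 -1.45 (-2.11) and RPS3 -1.74 (-2.42). Limited to 2 kb it was 6.27 for ZNF254 (5.06 within 10 kb), 3.29 for DUX4L (4.65), 2.04 for OR2T1 (3.06), 1.80 for HBG2 (1.14), -2.46 for HOXA13 (-1.88), -3.34 for KREMEN2 (-2.53), -3.34 for BMF (-2.12) and -5.72 for CD79A (-3.56).

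HOX genes encode homeodomain factors that pattern the embryo from head to tail. By the 10 kb rule on peak centres 12 of 39 had an interval, 9 with enough fragments. All 9 were lower, with a median log2 ratio of -1.49 and a level that went from 19.1 to 6.44 fragments per kb. HOXD10 went from 117 to 28 fragments (0.259, 0.165 to 0.394), HOXA13 from 344 to 86 (0.271), HOXD11 from 94 to 24 and HOXD13 from 225 to 77. HOXC12 and HOXC13 share an interval that went from 888 to 322. The 9 lay between -1.93 and -1.35.

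Of 99 other developmental transcription factor genes, 39 were lower, 6 higher and 54 neither (median -0.82). GATA5, a cardiac and endodermal factor gene, went from 933 to 217 fragments (0.252), PAX2 of the kidney from 2183 to 552 (0.274, 0.249 to 0.301) and SOX2 from 141 to 52 (0.4). SOX3 went the other way, from 88 to 396 (4.88, 3.86 to 6.22), and SOX11 from 648 to 2704 over 179 kb (4.52, 4.15 to 4.93). ZIC1 and ZIC4, which share an interval, went from 330 to 932, HAND2 from 75 to 209 and NKX6-2 from 70 to 131. With background scaling the median was -1.63.

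Among secreted signals and their inhibitors, 34 of 54 WNT, BMP, FGF and TGF-beta ligand and antagonist genes were lower, none was higher and 20 were neither (median -1.23). SMAD7, the inhibitory SMAD of TGF-beta signalling, went from 115 to 16 fragments (0.151, 0.0834 to 0.255). WNT10B went from 83 to 7 (0.0914, 0.0356 to 0.197), WNT5A from 251 to 65 and CHRD, a BMP antagonist, from 550 to 125. When peaks at any TSS distance counted, the list median was -0.65, against -0.38 over all genes.

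Of 16 genes of Polycomb subunits and partners, 12 were lower, 1 higher and 3 neither (median -1.28). CBX8 went from 603 to 121 fragments (0.217, 0.177 to 0.265) and CBX2 from 406 to 92 (0.246), both readers of the mark. EED, the subunit that binds trimethylated lysine 27, went from 115 to 29, and KDM6B, a demethylase that removes the mark, from 206 to 53. RYBP, a subunit of variant Polycomb complexes, went from 339 to 146. SCMH1 went the other way, from 15 to 162 (11.7, 6.89 to 21.4), over an intron. EZH2 itself was the nearest gene of no peak centred within 10 kb, which does not show that the mark is absent there. EZH1 had 30 and 5 fragments, under the minimum.

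Zinc-finger genes of the ZNF series encode transcription factors, many of them KRAB repressors, that lie in tandem clusters, many of them on chromosome 19. Of 342 measured, 232 were higher and 36 lower, and 74 passed neither rule. The median log2 ratio was 1.82, or 1.61 over 260 groups that share no interval. The level of the median member went from 5.35 to 15.5 fragments per kb. On chromosome 19, 165 of 190 were higher (median 2.78, 3.11 to 17.9 fragments per kb), and elsewhere 67 of 152 (0.37). Other genes of chromosome 19 had a median of -1.06, and 405 of 773 were lower. ZNF467 and ZNF862 on chromosome 7, which share an interval, were among the 36 lower: ZNF467 went from 1842 to 415 (0.244, 0.219 to 0.272) and ZNF862 from 1935 to 460. With background scaling 173 ZNF genes were higher and 74 lower (median 1).

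Clustered protocadherins, adhesion genes that neurons express in combinations, lie in tandem arrays on chromosome 5. Of 47 measured, 26 were higher, none lower and 21 neither (median 1.31), and these fell into 8 groups that share no interval (median 0.88). The 96.5 kb interval at PCDHB15 went from 4.57 to 25.1 fragments per kb (441 to 2423 fragments, 5.95, 5.38 to 6.6). PCDHGA12 went from 27 to 148 and PCDHGA1 from 670 to 1516. With background scaling 3 were higher and 2 lower, and the median was 0.49.

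The retinoid pathway list had 1 higher, 8 lower and 22 neither of 31 (median -0.60), close to all genes. STRA6, the membrane receptor for vitamin A uptake, went from 92 to 19 fragments (0.224, 0.129 to 0.37) and RARG, a retinoic acid receptor gene, from 344 to 79 (0.249, 0.192 to 0.319). CRABP1, a retinoic acid binding protein gene, went from 363 to 132. CYP26A1, whose enzyme degrades retinoic acid and which retinoids commonly induce, went from 132 to 54 (0.443, 0.317 to 0.613), a log2 ratio of -1.17, but with peaks at any TSS distance it was -0.26 and no longer passed. RARB, a retinoic acid receptor gene with a retinoid response element, had 100 and 62 fragments over 6 intervals (0.672, 0.481 to 0.931) and did not pass the rule, and its log2 ratio turned from -0.57 to 0.39 with peaks at any distance. RDH12, a retinol dehydrogenase gene, went from 54 to 119 (2.39, 1.72 to 3.36).

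Among markers of the bladder epithelium, 7 of 16 urothelial and luminal genes were lower, none was higher and 9 were neither (median -0.95). UPK1A went from 169 to 37 fragments (0.237, 0.161 to 0.34), UPK3A from 439 to 140, GRHL3, a differentiation factor gene, from 155 to 36, and CLDN7, a tight junction gene, from 179 to 49. FGFR3, a receptor tyrosine kinase gene often mutated in luminal tumours, went from 263 to 65 (0.268, 0.201 to 0.352). GATA3, a luminal transcription factor gene, had 92 and 69 fragments (0.813, 0.586 to 1.12), which do not differ beyond counting error, and UPK1B had 225 and 303. Of 28 basal and squamous genes 6 were lower, 1 higher and 21 neither (median -0.62). ITGB4, a hemidesmosome integrin gene, went from 311 to 87, KRT17 from 149 to 44 and TFAP2A from 48 to 4 (0.0903, 0.0236 to 0.247). KRT5, KRT6A, KRT6B and KRT6C share an interval of 3256 and 1766 fragments (0.588), short of the rule. SERPINB3, a squamous antigen gene, went from 13 to 47. Of 18 mesenchymal genes 6 were lower, none was higher and 12 were neither (median -0.68, or -1.61 with peaks within 2 kb and -0.27 at any distance), with SNAI3 at 162 and 35, COL1A1 at 349 and 110 and MMP9 at 3298 and 1264 fragments.

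**Figure D3:**
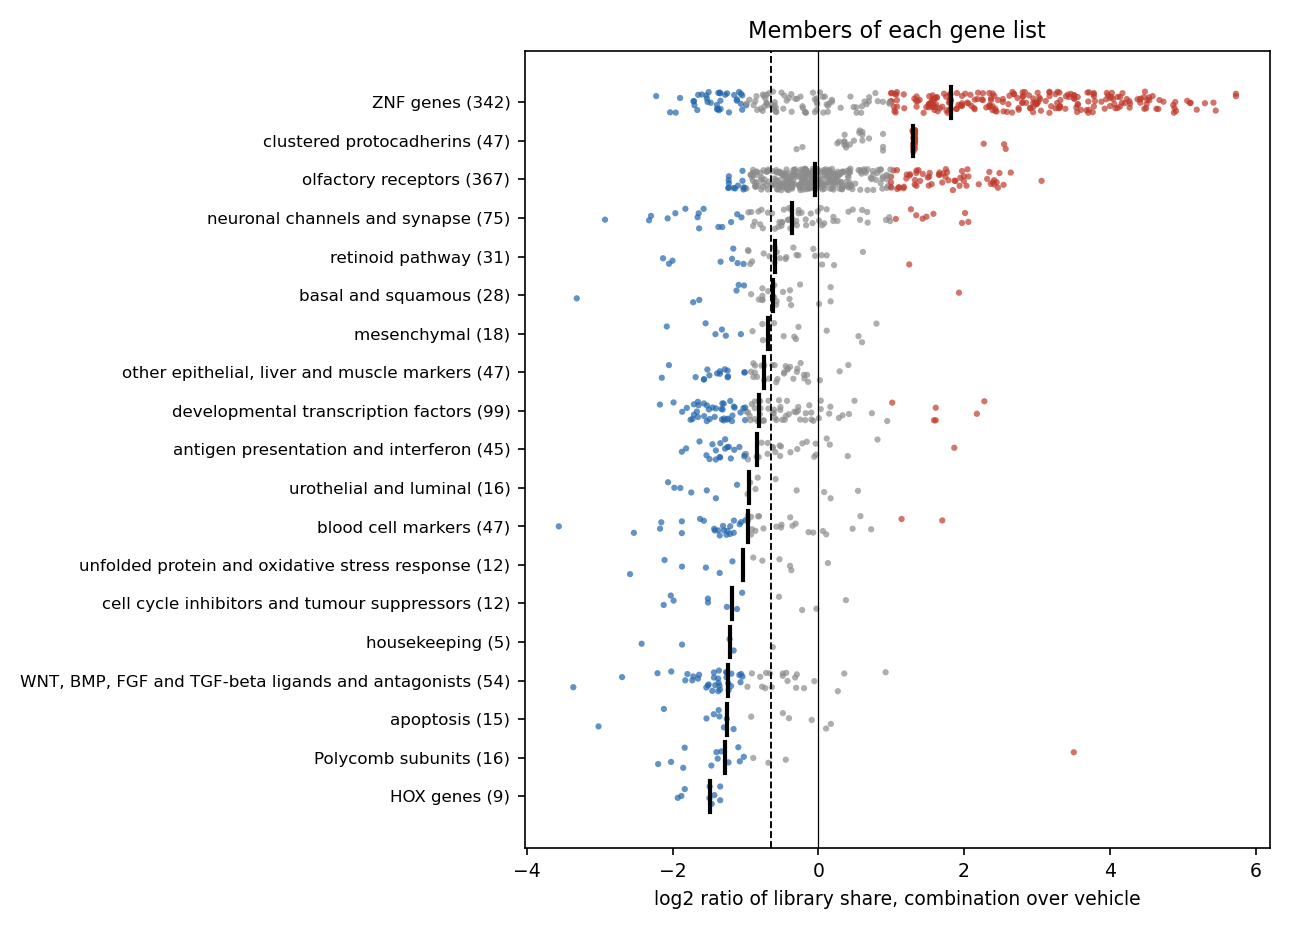
Each point is a measured member of a gene list (number in brackets) at its log2 ratio of library share, combination over vehicle; red points were higher, blue lower and grey neither, black bars are list medians and the dashed line is the median of all genes (-0.64). ZNF genes (1.82) and clustered protocadherins (1.31) have medians above 0, and HOX genes (-1.49) have the lowest.

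Growth control and cell death genes were seldom measured. Of 37 cell cycle inhibitor and tumour suppressor genes 12 had enough fragments, 8 lower, none higher and 4 neither (median -1.18). With peaks at any TSS distance the list median was -0.38, against -0.38 over all genes. KLF4, a differentiation factor gene, went from 49 to 10 fragments (0.221, 0.0999 to 0.442), a log2 ratio of -2.12, but with peaks at any distance it was -0.17 and no longer passed. SFRP5, a WNT inhibitor gene, went from 564 to 182 and GADD45G from 6556 to 2934. CDKN1A and CDKN2A were the nearest genes of no peak centred within 10 kb, which does not show that the mark is absent there. Of 15 apoptosis genes 9 were lower, none was higher and 6 were neither (median -1.26, or -0.59 with peaks at any distance). Besides BIK these were BMF, another BH3-only gene (284 to 60, 0.229, 0.17 to 0.303), HRK (546 to 205), BBC3, which encodes PUMA (81 to 31), and others. Of 12 genes of the unfolded protein and oxidative stress responses 6 were lower, none was higher and 6 were neither (median -1.03, or -1.87 with peaks within 2 kb). ATF3, a stress-induced transcription factor gene, went from 165 to 25 (0.164, 0.103 to 0.251), SRXN1, a sulfiredoxin gene of the antioxidant response, from 301 to 64 (0.23), and CREB3L3 from 924 to 233.

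Of 45 antigen presentation and interferon genes 20 were lower, 1 higher and 24 neither (median -0.85). ULBP2, a ligand of the natural killer receptor NKG2D, went from 313 to 93 (0.322, 0.253 to 0.407), IFNL3, a type III interferon gene, from 127 to 33, CIITA, the activator of class II genes, from 3154 to 1144, and PSMB9 of the immunoproteasome from 57 to 14. IFI44 went from 16 to 55.

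Genes of other cell types also lay in intervals. Of 47 blood cell genes 23 were lower, 2 higher and 22 neither (median -0.96). LSP1, a leukocyte actin-binding protein gene, went from 353 to 56 and CD79A of the B cell receptor from 57 to 4 (0.076, 0.02 to 0.206), while CD14 went from 56 to 169 (3.27) and HBG2 from 64 to 131 (2.22). The log2 ratio of CD14, 1.70, was 0.54 with peaks at any TSS distance and no longer passed. Of 75 neuronal channel and synapse genes 9 were higher, 15 lower and 51 neither (median -0.37). GRM6, a glutamate receptor gene in a 274 kb interval, went from 3061 to 11087 (3.92, 3.77 to 4.09), CNTN4 from 166 to 620 and NLGN1 from 35 to 136, while NXPH4 went from 226 to 27 and GRIN2D from 116 to 21. Of 47 other epithelial, liver and muscle genes 16 were lower and none was higher (median -0.74), with INS at 405 and 84 and SFTPC at 459 and 102. Olfactory receptor genes were mostly in neither class (294 of 367, 60 higher, 13 lower, median -0.04, or -0.86 with background scaling). OR2T1 went from 12 to 96 and OR2M2 from 75 to 390. Only 14 of 36 housekeeping genes had an interval and 5 had enough fragments; 4 were lower, with RPS3 at 78 and 13, RAB7A at 45 and 11, TFRC at 54 and 22 and PSMB2 at 225 and 89. With peaks at any distance RAB7A went from -1.87 to -0.74 and no longer passed.

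**Figure D4:**
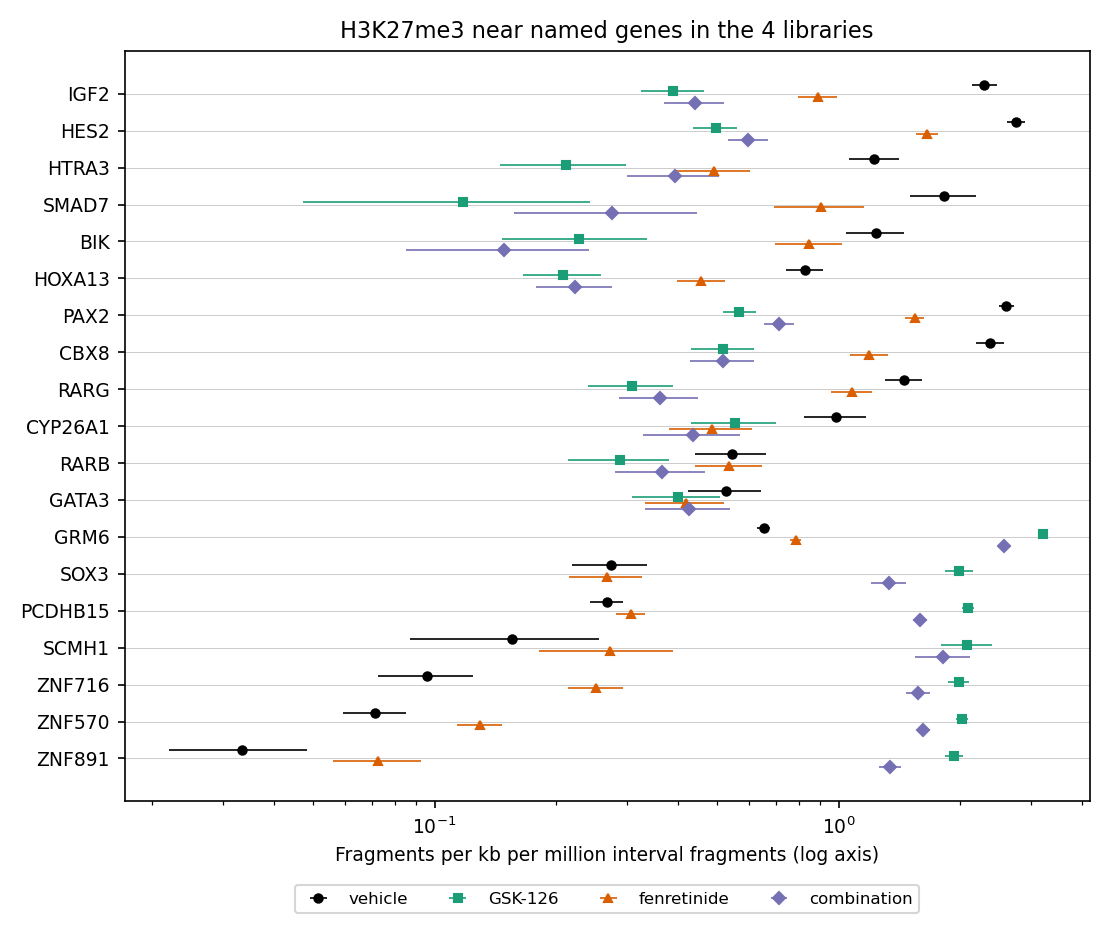
Points give fragments per kb scaled to the interval fragments of each library (log axis) near 19 genes in the vehicle, GSK-126, fenretinide and combination libraries, with exact 95% Poisson counting intervals as bars. From IGF2 to RARG the combination lies below vehicle and fenretinide (for HTRA3 its bar overlaps that of fenretinide), from GRM6 to ZNF891 it lies above both, and for GATA3 the bars of all 4 libraries overlap.

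The single-compound libraries were used to ask whether the combination went beyond both compounds added on the log2 scale. The departure is the combination's log2 ratio to vehicle minus the sum of the log2 ratios of GSK-126 and of fenretinide, with a 95% Poisson counting interval, and it was called at 1 or more in either direction where that interval excludes 0. Of 14701 genes with at least 100 fragments in the 4 libraries, 91.9% lay within 1 of the sum (median departure 0.26). Above the sum were 760 (5.17%) and below it 314 (2.14%). Where the sum was a fall (10940 genes), 760 stopped short of it, 21 of them on the other side of 0, and 2 went further. Where the sum was a rise (3761 genes), 312 stopped short of it, 13 of them on the other side of 0, and none went further. The median changes behind these were, for GSK-126, fenretinide and the combination in turn, -1.10, -0.22 and -0.90 among falls and 0.84, 0.20 and 0.72 among rises. Across 158850 intervals 6548 (4.12%) were above and 7780 (4.9%) below, and of those past the sum in its own direction 100 were falls and 35 rises, while 6513 falls and 7680 rises stopped short.

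**Figure D5:**
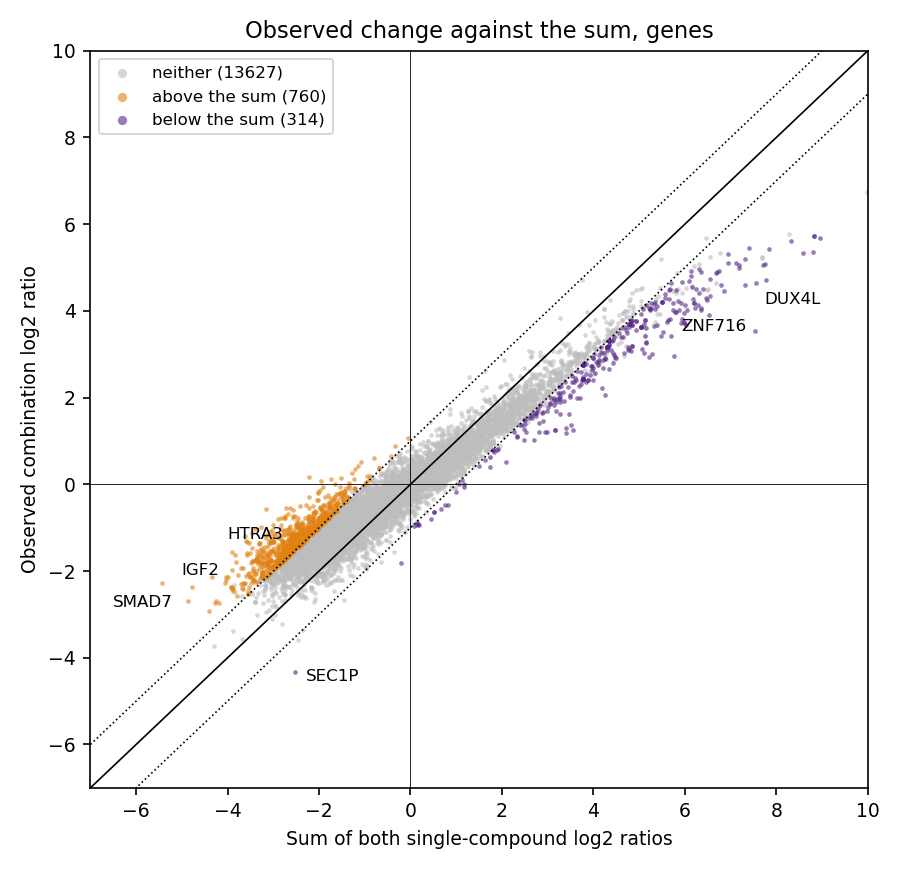
Each point is 1 of 14701 genes, with the sum of both single-compound log2 ratios (x axis) and the observed log2 ratio of the combination (y axis); the solid line is equality and dotted lines lie 1 above and below. The 760 genes above the sum lie on the side of the falls, and the 314 below it lie almost all on the side of the rises.

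The 2 genes that fell further than the sum were SEC1P and LOC101929322, named here after their values were seen. SEC1P, a pseudogene beside CA11 on chromosome 19 (the interval is among the 3 of CA11), had 76 vehicle, 16 GSK-126, 64 fenretinide and 3 combination fragments, a departure of -1.82 (-3.55 to -0.08). LOC101929322 had 32, 23, 40 and 8, a departure of -1.61 (-2.92 to -0.30), and with peaks at any TSS distance its log2 ratio to vehicle was -0.21 in place of -1.82. Both rest on few fragments. CA11 as a whole, at 97, 20, 87 and 7, had a departure of -1.12 that was not called. WNT10B, at 83, 27, 51 and 7, was not called either. BIK, at 144, 25, 109 and 16, had a departure of -0.05.

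Among the 8 largest departures above the sum, both single-compound libraries had log2 ratios below 0. Low single-compound counts raise a departure by its definition. HTRA3, a serine protease gene, had 203 vehicle, 33 GSK-126, 90 fenretinide and 60 combination fragments, a departure of 2.20 (1.49 to 2.90). IGF2 had 766, 123, 328 and 136 (1.54, 1.14 to 1.94). BAHD1, which encodes a heterochromatin protein that binds the mark, had 270, 43, 106 and 56 (1.90, 1.24 to 2.55). COL2A1, the type II collagen gene, had 717, 158, 497 and 264 (1.44, 1.11 to 1.77), and SRCIN1, a SRC inhibitor gene, had 789, 151, 409 and 213 (1.62). Outside the 8, SMAD7 had 115, 7, 63 and 16 (2.17, 0.85 to 3.50). Near all 6 of these genes the combination library, the smaller in total, held more fragments than the GSK-126 library. A departure above the sum favours this by its definition, so it is no separate result. CCDC136 and LOC390937 were also among the 8, with departures of 1.98 and 1.68, as was AC105053.3 (1.31 to 2.69). Of the 9 HOX genes 4 were above the sum (median departure 0.95), as were 9 of 99 developmental factors, among them PAX2 (2183, 450, 1432 and 552, departure 1.08), 7 of 53 WNT, BMP, FGF and TGF-beta genes and 2 of 12 stress response genes, ATF3 among them (1.22). None of 30 retinoid, 16 urothelial and 11 cell cycle genes departed. Over all genes 5.17% were above the sum and 2.14% below it, so few calls would fall in lists this short.

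Below the sum, 312 of 314 genes had a summed rise. Of 346 ZNF genes 63 were below and 1 above it (median departure -0.48), against 2.14% below and 5.17% above over all genes. ZNF716 had 56, 1094, 162 and 850 fragments in the same order, a departure of -1.71 (-2.17 to -1.26). ZNF254 had 17, 690, 67 and 539 (-2.13), and ZNF845 had 14, 673, 51 and 489 (-2.11). MIR4273 had 73, 2136, 223 and 1538 (-1.90, -2.29 to -1.51) and DUX4L, of a repeated double homeobox family whose copies cannot be told apart in such counts, had 7, 287, 38 and 173 (-2.91). ZNF321P with ZNF816, TP53TG5 and LOC101927940 had 2 or 3 vehicle fragments and departures of -3.10, -3.27 and -3.45. None of 47 clustered protocadherins departed (median -0.49): PCDHB15 had 441, 3266, 559 and 2423. OR2T1 had 12, 142, 32 and 96 (-1.77).

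The vehicle count enters both single-compound ratios, so its error is counted more than once in the sum. Genes that fell short of a summed rise had a median of 22 vehicle fragments, against 109 over all genes with a summed rise, and those short of a summed fall 105 against 270; the part of the vehicle counts in these departures was not tested. With the sum taken on the linear scale, 1064 genes were above and 67 below, and 1224 genes had a linear sum at or under 0 and gave no value. Against the larger single compound alone, 170 genes were above and 66 below.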

How the data were processed

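The authors deposited raw fragment counts for 273664 consensus intervals, made with featureCounts 2.0.1 from read pairs without strand at a minimum overlap fraction of 0.2, per the file headers. They also deposited broad peaks of each library with a score of unstated scale (MACS2 2.1.0 and GRCh38, per the submitters' processing notes), annotated with HOMER, per the file headers. The aligner and the control for calling are not given in the sources used here. Interval starts were read as 0-based, and coordinates are printed 1-based.

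Ratios, counting intervals and departures were computed as given above, log2 values with a pseudocount of 0.5. Intervals needed 20 fragments in the pair, or 40 in the 4 libraries, and 1 Mb windows 200. Peaks overlapped at 1 bp. With 1 library a condition no p-value was computed. The classes of intervals come from the centre of the longest vehicle or combination peak. Of 18981 genes with an interval, 9968 had a RefSeq promoter window.

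Members and lists were chosen with earlier results of these data known. Named genes were the 15 largest rises and 15 largest falls with at least 100 fragments, ranked by the counting bound nearest to 1, the 8 largest departures each way with at least 200 fragments, up to 2 rises and 2 falls of each list, and 14 fixed genes. The rules were tested on simulated counts. Tools were R 4.3.3, matplotlib 3.10.9, pandas 2.3.3, Python 3.11.15 with scipy 1.17.1 and numpy 2.4.6, and DESeq2 1.42.0 and edgeR 4.0.16 for scaling factors only.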

Additional observations from a re-analysis of the deposited data

How the results depend on the processing

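Each condition had 1 library, so none was left out. No paired analysis was possible because no group has a second library. The depth limits genes near 50 fragments, whose counting intervals span a broad range. The zinc-finger count in proteins was not run, since no protein sequences were used here.

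Scaling moved the median gene to -0.78 (DESeq2), -0.80 (TMM) and -1.46 (background scaling, a constant shift of all log2 ratios). Background scaling gave 756 higher and 10196 lower genes, 16254 higher and 64420 lower intervals, and 54 higher and 990 lower promoter intervals in place of 132 and 513. Its reference is the intervals of lowest density, where higher calls were most frequent, so these counts follow in part from that choice. All list medians kept their sign under the 3 planned scalings. All 3 lower every ratio, so only the 2 medians above 0 could have turned. With background scaling that of ZNF genes went from 1.82 to 1.00 and that of clustered protocadherins from 1.31 to 0.49. The HOX median went from -1.49 to -2.30, and most other list medians moved too.

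A 1.5-fold call gave 7704 lower genes. Peaks within 2 kb of the TSS, which leave fewer genes, gave 580 higher and 2472 lower genes, and 425 departures above and 154 below. The log2 ratio of C1QTNF8 was then 0.21, without the interval that covers its promoter. No housekeeping gene was left. Of the genes named in the report, IGF2, BAHD1, CBX2, CBX8, SCMH1, RARG, TFAP2A, ITGB4, GATA3, SRXN1, ZNF467 and others then had no value. HOXA13 and SFTPC had none when only the peaks of the 2 libraries counted. Without a distance limit 2948 genes were higher, 514 lay below the sum, the median was -0.38, and the median of olfactory receptors turned to 0.0458. At a minimum of 50 fragments 22511 intervals were higher and 14442 lower, with 76 higher promoter intervals. Counting an interval with any promoter peak gave 1062 lower and 229 higher promoter intervals.

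For departures, a minimum of 400 fragments gave 225 genes above and 152 below, and a minimum of 100 gave 3451 and 4711 intervals. A 1.5-fold departure gave 2704 and 749 genes and 10795 and 13017 intervals. The linear sum gave 67 genes below, 1509 intervals above and 4721 below. The larger single compound gave 170 genes above and 66 below, and 3968 intervals below. When a peak needed 0.5 of its length covered, 46.4% of vehicle and 55.8% of combination peaks lacked a partner, and at a score of at least 20 these were 54.2% and 31.1%. The cause of these differences was not tested. The other 70 counts, medians over all genes and shares stayed within 1.5 times the reported count, or within a 95% interval. That interval is a counting interval for shares, and for medians it is taken over the genes. Of the list medians over all settings 103 stayed within theirs, 28 moved out and 1 turned. Of the values of named genes 500 stayed within their counting interval, 118 moved out and 1 turned.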
